A study of Drosophila melanogaster with 2 samples.

Results

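The peaks described here lay in introns near the start of genes. They are the 704 entries, of 5777 in the authors' optimal set of reproducible peaks on the dm6 build, whose summit was more than 500 bp and at most 2000 bp from the nearest transcription start site (TSS) of a protein-coding gene, inside a protein-coding gene body and in no exon of a protein-coding transcript. Within that set only position chose them, and the authors' filter left no signal below 163 in it. Overlapping entries joined them into 623 separate regions, and 494 entries were alone in their region. They had 509 host genes when each entry was given 1 host, which is the gene of the nearest TSS wherever that gene spans the summit. For comparison, 3841 entries had a promoter summit, within 500 bp of a coding TSS, and 731 lay in introns more than 2000 bp away.

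The peaks came from chromatin immunoprecipitation and sequencing (ChIP-seq) with an antibody against GFP. Adult Drosophila melanogaster were used whole, with males and females pooled and of unknown age, from a stable transgenic line in which the homeobox protein CG11617 carries GFP at its C terminus. There was 1 group of 2 biological replicates, numbered 2 and 3 in the labels, both with sonicated chromatin and from the same line. No control sample was analysed here, and the peak lists carry no read counts, so depth is unknown. Binding in a few cells and weak binding in many cannot be told apart in chromatin of whole animals.

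Introns close to the start of a gene, above all the first intron, are known in flies to hold enhancers, which raise transcription from a distance. Many fly genes also have alternative promoters, so an intron of a long transcript can contain the start of a shorter one. Homeobox proteins bind DNA through a homeodomain, and many homeodomains recognise short sequences rich in A and T. CG11617 belongs to the TALE class, of which other proteins are known to bind sites such as TGACAG. No motif of CG11617 itself was at hand.

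The sequence under most of the strongest peaks was low in G and C. The summit with 50 bases to each side is printed for 8 of the 9 strongest regions to show this composition and some of the motifs that were searched. Sequences are the + strand of the Release 6 genome sequence from RefSeq (dm6), read 5′ to 3′, and capitals mark a match on either strand to the homeodomain core TAATTA, the Iroquois-type core TAACA, the forkhead site TGTTTAC or the A tract AAAAAAA.
CG11050 (chr2L:6612661-6612761): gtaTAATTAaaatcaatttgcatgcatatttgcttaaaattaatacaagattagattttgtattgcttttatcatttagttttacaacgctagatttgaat
Lk6 (chr3R:11760998-11761098): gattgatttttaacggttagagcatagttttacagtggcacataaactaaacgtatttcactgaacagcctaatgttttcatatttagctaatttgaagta
CG32772 (chrX:4910324-4910424): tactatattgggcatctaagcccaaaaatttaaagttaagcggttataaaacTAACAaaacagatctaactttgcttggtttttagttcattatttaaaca
Trl (chr3L:14759465-14759565): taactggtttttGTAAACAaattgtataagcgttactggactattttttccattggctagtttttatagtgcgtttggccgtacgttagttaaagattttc
ush (chr2L:481018-481118): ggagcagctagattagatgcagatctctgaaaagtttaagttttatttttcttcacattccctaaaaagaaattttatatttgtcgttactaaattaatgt
gce (chrX:15298421-15298521): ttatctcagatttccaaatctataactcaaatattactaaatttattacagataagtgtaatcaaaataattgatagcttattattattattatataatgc
CG9663 (chr2L:3302148-3302248): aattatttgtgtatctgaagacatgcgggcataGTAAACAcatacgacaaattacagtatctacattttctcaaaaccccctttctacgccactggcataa
norpA (chrX:4324939-4325039): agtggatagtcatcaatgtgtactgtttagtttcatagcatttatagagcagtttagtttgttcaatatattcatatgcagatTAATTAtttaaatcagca

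Of these 8 windows, the one in CG11050 and the one in norpA held TAATTA. The CG32772 window held TAACA, and the Trl and CG9663 windows held TGTTTAC on the other strand. The windows in Lk6, ush and gce held none of the 4. Other motifs that were searched are not marked: the gce window held the GATA site AGATAA and the CG11050 window the GATA site TGATAA. GC content ran from 18.8% in gce to 37.6% in CG9663, against 50.5% and 39.6% in the flanks of the same 2 peaks, which are equally long and lie 350 bp away on both sides. Over the 15 strongest regions it had a median of 27.7% and was below the flanks in 14, the exception being Adf1 with 42.6% against 41.6%. A match is a description of the letters and does not show which protein was bound.

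The strongest intronic peak was also the strongest of the whole set. It lay in CG11050 (2L), in a second intron of only 140 bp, 1024 bp downstream of the TSS. Its signal, the authors' peak score in the pooled list, was 5197, with 1546 in replicate 2 and 3650 in replicate 3, and it ranked 1 in both. Signals are not scaled between lists, so replicate values were compared only after the common shift between the lists was removed.

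The next strongest peaks lay in genes for kinases, chromatin proteins and transcription factors. Lk6, a kinase known to phosphorylate the translation factor eIF4E, had a signal of 3057 (851 in replicate 2 and 2198 in replicate 3) 969 bp upstream of a TSS of its own, in a first intron of another transcript. HmgZ, which encodes an HMG-box chromatin protein, had 3006 (946 and 2054) at 604 bp upstream of a start, and that summit is also inside the neighbouring HMG-box gene HmgD. Trl, the gene of GAGA factor, had 2601 (815 and 1786) at 1534 bp downstream. All of these lay far above the upper quartile of intronic signal, 400, in the pooled list.

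Peaks in a hormone receptor gene, a vision gene and further regulators followed. The summit in ush, a zinc-finger cofactor of GATA factors, had a signal of 2499 (795 in replicate 2 and 1690 in replicate 3), but its nearest TSS was 1380 bp away and belonged to cbt, another zinc-finger gene. The summit in gce, which encodes a receptor of juvenile hormone, had 1746 (541 and 1203) at 538 bp upstream of a start. The summit in norpA, the phospholipase C of phototransduction, had 1726 (500 and 1225) at 1380 bp downstream. Signals of 1561 and 1541 were found in simj, a subunit of the NuRD chromatin complex, and in for, a cGMP-dependent protein kinase.

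Among the 15 strongest regions, CHES-1-like, a forkhead gene, held 2, with signals of 1556 and 1360. The others were in CG32772 (2819), CG9663 (1737), the transcription factor gene Adf1 (1484) and CG4496 (1385). Of the 15, only the regions in CG9663 and CG4496 were in genes without a promoter peak of their own. The lowest-ranked of the 15 stood at 118 of 5777 in the pooled list.

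**Figure D1:**
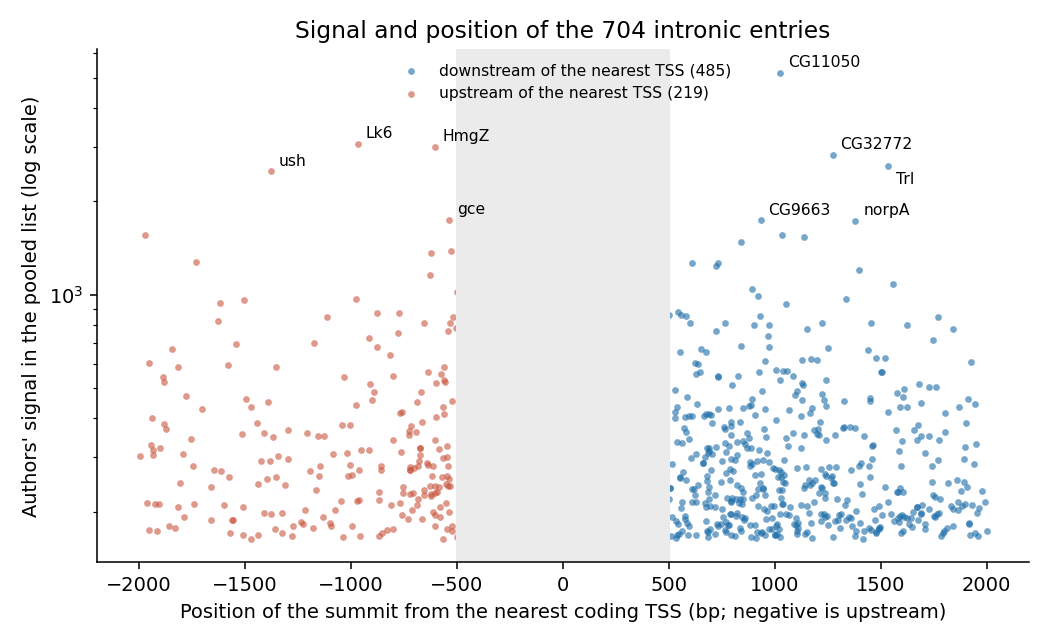
Each point is 1 of the 704 intronic entries, with the position of its summit from the nearest coding TSS in bp (negative is upstream) and the authors' signal in the pooled list on a log scale. Strong entries stand on both sides of the start site, with CG11050 at 5197 downstream and Lk6 at 3057 upstream, and 485 entries are downstream and 219 upstream.

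Across all 704 entries the signal had quartiles of 198, 261 and 400, from 163 to 5197. The median was 263 over all 5777 entries, 269 at promoters and 239 in distal introns. High signals made up a somewhat smaller share than at promoters: 24 intronic entries (3.41%) exceeded 1000, against 4.66% of promoter and 2.33% of distal intron entries. The 10% of all entries with the highest signal included 65 of the intronic ones (9.23%), against 11.0% of promoter and 6.43% of distal intron entries. Their median width was 433 bp, and that of promoter entries was 508 bp. Peaks are not replicates and neighbours share a region, so these differences carry no test.

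Entries of the same class were also counted in the pooled list of 30000 candidates, most of which did not reach the filtered set. Of 4196 candidates in introns 500 to 2000 bp from a TSS, 704 (16.8%) reached the lowest signal of the filtered set. The share was 30.1% for promoter candidates, 10.2% for distal intron candidates and 4.61% for exon candidates. Intronic candidates near a start therefore stood between promoter and distal ones on this scale too, with median pooled signals of 64.3, 99.7 and 53.0 for the near intron, promoter and distal intron candidates.

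Nearly all of these peaks overlapped an entry in both replicate lists, as did those of the whole set. Every one of the 704 overlapped an entry of replicate 2 and 702 overlapped an entry of replicate 3, with median signals of 95.9 and 192. The exceptions were entries in atos (pooled signal 424) and Exn (163). Any shared base counted, and 5773 and 5764 of all 5777 entries also had an overlap. Fewer of the 704 were among the 5777 highest entries of a replicate. These were 624 (88.6%) in replicate 2 and 673 (95.6%) in replicate 3, against 87.6% and 95.2% of all entries. Replicate 3 was higher by a median of 2.13-fold, against 2.21-fold over all entries. After that shift of 1.14 on the log2 scale was removed, the log2 ratio of the intronic entries had an SD of 0.45, and 25 (3.56%) departed by more than 2-fold, against 2.67% of all entries. Spearman's rho between replicates was 0.814 over 702 intronic entries, which are not independent. In each class, as many pooled candidates reached the lowest signal of the filtered set as the set has entries. The set thus matches a cut on pooled signal, not on the agreement of each entry between replicates.

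The widest departures were at weak peaks. In par-1, a kinase gene of cell polarity, a peak of pooled signal 168 had 19.1 in replicate 2 and 176 in replicate 3, 2.06 above the shift on the log2 scale. Similar departures were seen in CG3764 (1.86), in Diap1, an inhibitor of cell death (1.53), in milt, an adaptor of mitochondrial transport (1.45), and in Daxx (1.44). Replicate 2 was relatively higher in CG18135 (133 against 66.4, −2.15), Nt5b (−1.71), tacc (−1.40) and RhoGAP68F (−1.33). Of these 9 peaks all but the one in tacc, at 433, had pooled signals below 200. The value for dsx, the sex-determination gene, was −1.11, but it became −0.19 when the overlapping replicate entry with the nearest summit was used in place of the highest.

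**Figure D2:**
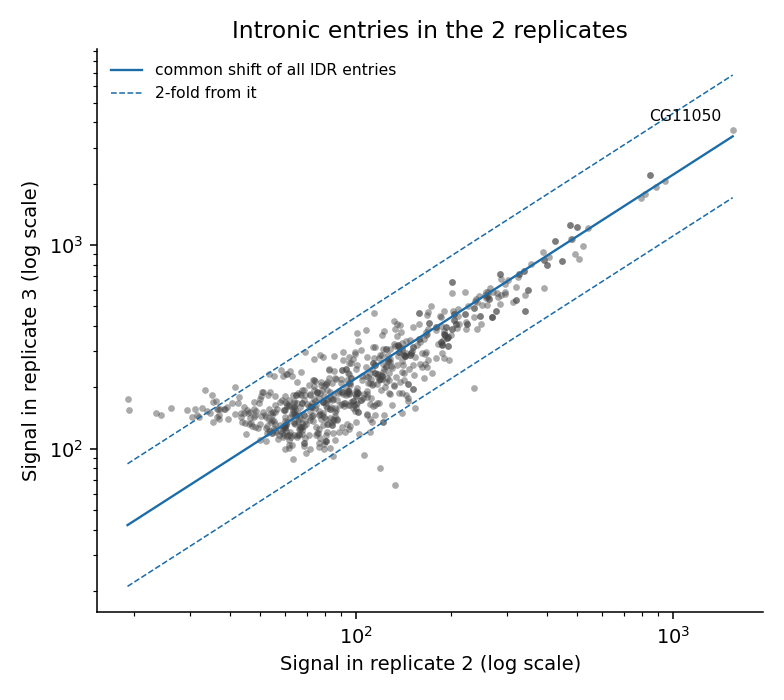
Each point is an intronic entry with its signal in replicate 2 and in replicate 3, both on log scales. The solid line is the common shift of all entries, a log2 ratio of 1.14, and the dashed lines are 2-fold from it, beyond which 25 of 702 entries lie, among them the par-1 entry at 19.1 and 176.

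Most summits lay downstream of their nearest start. Of the 704, 485 (68.9%) were downstream and 219 (31.1%) upstream, and in eligible intron sequence, all intron bases 500 to 2000 bp from a coding TSS, 67.0% of bases were downstream. The density was 69.9 entries per Mb of eligible sequence downstream and 64.1 upstream, so the 2 sides were similar for the sequence they offer. The median signal was 251 downstream and 281 upstream, and 14 and 10 entries exceeded 1000. An upstream summit inside an intron needs another transcript or gene that starts farther out: hosts of upstream entries had a median of 3 TSSs and hosts of downstream entries 2. Only 11 of the 219 upstream entries, against 167 of the 485 downstream, had a host with 1 TSS.

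Density fell with distance from the start. Eligible intron totalled 10.4 Mb, 7.74% of the 6 chromosome arms, and held 68.0 entries per Mb. Intron closer than 500 bp to a TSS held 240 per Mb and intron beyond 2000 bp held 17.3 per Mb. Within the zone, steps of 250 bp from 500 to 2000 bp held 182, 153, 124, 89, 80 and 76 entries, which gave 88.8, 79.2, 69.9, 54.1, 52.1 and 53.4 per Mb. Density thus fell over the first 4 steps and changed little over the last 2. Without the 42 entries whose region also contains a promoter entry, the first step dropped to 70.3 per Mb, below the second at 79.2, and the last step was 52.7.

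Median signal also fell with distance within the zone, but not steadily outside it. The median signal in the same 6 steps was 281, 270, 261, 247, 245 and 236. For intron summits closer to a TSS it was 292 within 250 bp and 261 from 250 to 500 bp. Farther out it was 227 from 2000 to 3000 bp, 254 from 3000 to 5000 bp, 232 from 5000 to 10000 bp and 239 beyond. The 2 sides differed in where their entries lay. From 500 to 750 bp the density was 110 per Mb upstream and 76.9 downstream. From 1000 to 1250 bp it was 45.2 upstream and 81.8 downstream. These densities include entries whose region also contains a promoter entry, without which the step from 500 to 750 bp held 144 entries in place of 182. The sides were not counted without them. The median distance was 1025 bp, with quartiles of 730 and 1446.5 bp.

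**Figure D3:**
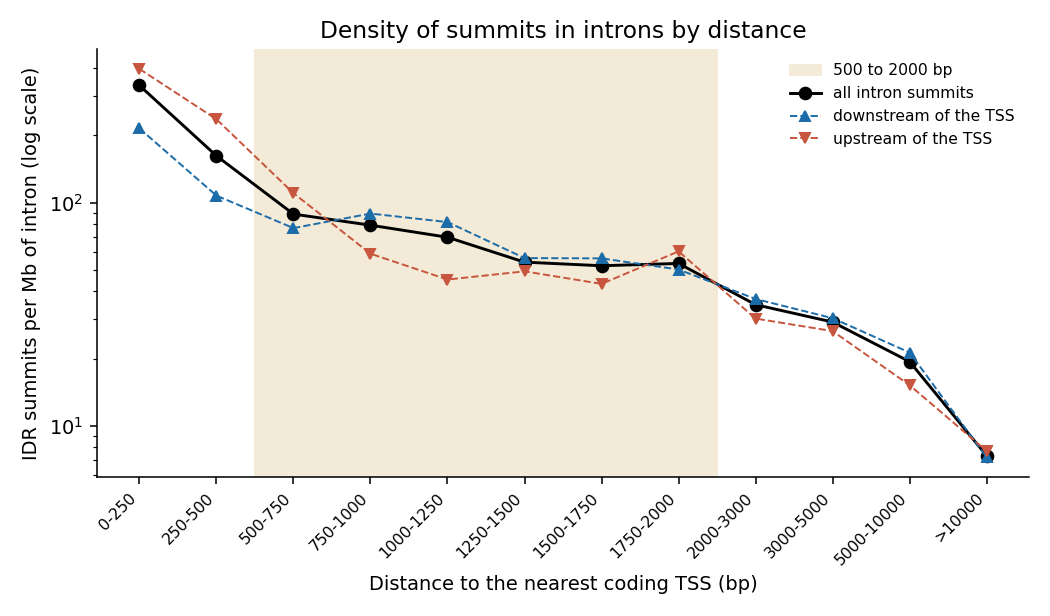
The density of intron summits, in entries of the filtered set per Mb of intron on a log scale, is plotted against the distance to the nearest coding TSS in bp, for all summits and for each side of the TSS. It falls from 335 per Mb within 250 bp to 7.35 per Mb beyond 10000 bp, and the shaded zone of 500 to 2000 bp runs from 88.8 to 53.4 per Mb.

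Entries were found on each of the long chromosome arms, at 57.6 to 77.8 per Mb. The arms 2L, 2R and 3L held 127, 127 and 117 entries, or 69.1, 63.6 and 57.6 per Mb of eligible intron. The arm 3R held 181 (77.8 per Mb) and the X chromosome 152 (74.4 per Mb). Chromosome 4 held 0, but it offers only 0.118 Mb of eligible intron.

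First introns held most of the peaks. In 599 of the 704 (85.1%) the summit was in the first intron of at least 1 transcript of its host, and in 421 (59.8%) it was first in every host transcript with an intron there. In the longest transcript of the host, 414 of the 593 summits that fell in one of its introns (69.8%) were in the first. The lowest intron order was 2 for 82 entries, 3 for 15, 4 for 4, 5 for 1 and above 5 for 3. The highest, 12, was in Msp300, the giant nesprin that anchors nuclei in muscle, whose entry of signal 1156 (357 in replicate 2 and 803 in replicate 3) lay 627 bp upstream of an internal start.

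The share in first introns was above what the sequence near a start offers. Counting first introns of any coding transcript, 601 entries (85.4%) and 66.2% of eligible bases were in one, which gives 87.7 entries per Mb of first intron and 29.4 per Mb of later intron. Signal differed less: the median was 263 for the 599 entries in a first intron of the host and 249 for the 105 in a later one, with quartiles of 198 and 407 against 196 and 341. The introns were long, with a median of 3916 bp and quartiles of 1646 and 8914 bp, and 492 entries (69.9%) were in introns of more than 2000 bp. Summits lay a median of 794 bp from the 5′ end of the intron, and 432 (61.4%) were within 1000 bp of it.

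Host genes that had an intronic peak often had a promoter peak as well. A promoter entry within 500 bp of any TSS of the host accompanied 502 of the 704 entries (71.3%) and 346 of the 509 hosts (68.0%), where 36.9% of the genes that could host one had a promoter peak. Genes with a promoter peak and enough eligible intron for 1 such window hosted an entry in 362 of 2679 cases (13.5%), and genes without one in 181 of 4582 (3.95%), counting every host of an entry. Their median eligible sequence was alike, 679 and 658 bp. The densities were 116 and 35.4 entries per Mb, and 106 and 35.2 when entries sharing a region with a promoter entry were left out. Each intronic entry was set against the strongest promoter entry near any TSS of its host, a choice that favours the promoter. On this comparison the intronic signal was the higher in 183 of 502 cases (36.5%), with a median ratio of 0.814. The nearest TSS itself had a promoter peak for 322 entries (45.7%), 50.3% of the downstream and 35.6% of the upstream ones.

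Named hosts illustrate both orders of strength. In Lk6 the intronic signal of 3057 stood above the promoter signal of 562, in Trl 2601 stood above 597, and in HmgZ 3006 stood above 243. The reverse held in cry, the blue-light photoreceptor of the clock, with 215 in the intron and 1823 at the promoter. It also held in bbx, an HMG-box gene, with 963 and 2327, and in Piezo, a mechanically gated channel, with 265 and 2043. In hosts with a promoter peak the median intronic signal was 267, and in hosts without one it was 248.

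For 656 entries (93.2%) the nearest TSS belonged to a gene that spans the summit, and for 48 it belonged to another gene. In eligible sequence this share was 80.7%, with 78.5 entries per Mb where the nearest start was of a spanning gene and 24.0 where it was not. Upstream entries had the lower share, 82.2% against 98.1% downstream. An upstream summit can lie in the gene of its nearest TSS only if that gene also starts farther out, so position itself lowers this share. Eligible sequence was not split by side for it. The strongest of the 48 was the ush summit near cbt. It was followed by summits in CG14434 near CG43736 (1021), in the potassium channel gene KCNQ near the tubulin cofactor gene mlt (872), and in CG1677 near brk, the repressor of BMP targets (754). A summit in osp lay 1844 bp from the starts of Adh and Adhr, which are nested in that gene (666). Which gene such a peak acts on cannot be read from its position.

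Most hosts had a single peak of this kind. Of the 509, 421 had 1 region and 88 (17.3%) had 2 or more, which together held 230 entries. The number was highest in Tlk, the Tousled-like kinase of chromatin assembly, with 7 regions over a gene of 69764 bp with 8 TSSs and with 18201 bp of eligible intron. Its signals ran from 180 (32.1 in replicate 2 and 143 in replicate 3) to 822 (255 and 566), and 4 of the 7 lay upstream of a Tlk start.

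CHES-1-like had 4 regions with 6 entries in 8285 bp of eligible intron, and their signals ran from 304 to 1556. All 6 were in the first intron. SNF4Agamma, the gamma subunit of the AMP-activated kinase, had 4 regions with signals from 187 to 341 in a gene of 73531 bp with 11 TSSs. CG12535 also had 4, from 212 to 253, and the nearest start of 1 of them was that of CG14269. These 4 hosts had between 8285 and 22083 bp of eligible sequence, against a median of 670 bp over all genes. Whether this length accounts for their number of regions was not tested.

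Functions of the hosts were described with 13 lists of named genes, written by hand from gene symbols with no function table at hand. Earlier results of these data were known by then, and the list shares, densities and their order depend on which genes were put on the lists. Over all 7261 coding genes with enough eligible intron for 1 window, 543 (7.48%) hosted an entry, with 68.9 entries per Mb and a median highest signal of 284. On this background 170 of the 977 genes on any list (17.4%) did so, with 98.8 per Mb. Named, well-studied genes tend to be long, and the median eligible sequence was 1425 bp on the lists against 670 bp over all genes, so the density is the fairer of the 2 measures. Lists overlap, and an entry inside 2 genes counted for both.

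Chromatin regulators had the highest density of the 13. Of 74 genes, 18 (24.3%) were hosts, with 292 entries per Mb and a median highest signal of 414, and 71.6% of the list had a promoter peak. Without Tlk the density was 277 per Mb. Beside HmgZ, HmgD and Trl, Sin3A, a scaffold of histone deacetylase complexes, had a signal of 969 (350 in replicate 2 and 603 in replicate 3) at 1333 bp downstream of a start. The NuRD subunit gene simj, with 1561, was not on this list. The HmgZ and HmgD leaders are 1 entry.

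Sequence-specific transcription factors had a lower density. Of 185 genes, 31 (16.8%) were hosts, with 90.6 entries per Mb and a median highest signal of 353. On this list, ush was followed by bbx with 963 (303 in replicate 2 and 670 in replicate 3) and NFAT with 942 (321 and 618). Next came Stat92E, the transcription factor of the JAK-STAT pathway, with 679 (247 and 448). The forkhead gene CHES-1-like (1556) and the transcription factor gene Adf1 (1484) had higher signals than bbx but were not on the list. Stat92E had no promoter peak. The promoter share of this list was 33.5%, against 36.9% of all eligible genes and 71.6% of the chromatin list.

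Genes of signal transduction were hosts at 16.9% to 23.2% in 3 lists. Protein kinases and phosphatases had 22 of 112 (19.6%, 119 per Mb), and after Lk6 and for the highest was the STE20-type kinase gene fray, at 1040 (327 in replicate 2 and 721 in replicate 3). That summit also lies in CG7694. Small GTPases and their regulators had 16 of 69 (23.2%, 115 per Mb) with moderate signals, led by RhoGAP18B (603), RhoGAP92B (553), Rab11 of the recycling endosome (417) and the exchange factor gene Rgl (414). Developmental signalling genes had 15 of 89 (16.9%, 107 per Mb), led by the insulin receptor gene InR with 813 (221 and 589) at 658 bp upstream of a start that has no promoter peak. Another InR start had a promoter signal of 274. The receptor tyrosine kinase antagonist gene sty (486) and the BMP receptor gene put (351) followed Stat92E and had no promoter peak.

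Hormone and clock genes had few eligible members. Of 28 genes of the ecdysone and hormone response, 8 (28.6%) were hosts with 101.3 entries per Mb, led by gce, the nuclear receptor gene Eip75B (564), the coactivator gene tai (380) and br (341), whose entry also lies in Mur2B, the gene of its nearest TSS. Of 20 clock genes, 4 (20%) were hosts with 83.2 per Mb. These were Pdp1 (519), the casein kinase gene dco (435), the repressor gene vri (253) and cry (215). With this few genes, 1 host more or less moves the share by several percentage points.

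Muscle, metabolic and RNA-binding genes had shares close to each other. Cytoskeleton and muscle genes had 21 hosts of 86 (24.4%, 102 per Mb), with Msp300, the myosin gene Mhcl (856), the dynein heavy chain gene Dhc64C (682) and osp (666) at their head. Metabolism and transport had 18 of 83 (21.7%, 145 per Mb), with Zw, the glucose-6-phosphate dehydrogenase gene, at 846 (259 in replicate 2 and 589 in replicate 3), the perilipin gene Lsd-2 at 808, the glutamine synthetase gene Gs2 at 764 and the glutamate dehydrogenase gene Gdh at 524. RNA-binding and splicing proteins had 16 of 75 (21.3%, 100 per Mb), led by mub (798), the ELAV-like gene Rbp9 (512), the Nova homologue ps (429) and AGO1 of the microRNA pathway (408). Ubiquitin and protein turnover genes had 8 of 65 (12.3%, 121 per Mb) and a median eligible sequence of only 625 bp, although 75.4% of them had a promoter peak. Diap1 led with 656, ahead of kel (279), Bruce (273) and ctrip (261).

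Neuronal and adhesion genes had the lowest densities. Ion channels and neurotransmitter receptors had 6 hosts of 79 (7.59%, 37.8 per Mb), and 13.9% of the list had a promoter peak. KCNQ led with 872 (202 in replicate 2 and 660 in replicate 3), followed by the chloride channel gene Best1 (367), the potassium channel gene Irk1 (308) and Piezo (265). Cell adhesion and axon guidance genes had 7 of 85 (8.24%, 35.5 per Mb), and 28.2% of the list had a promoter peak, against 36.9% of all eligible genes. Their strongest entries were in kirre, an adhesion receptor of myoblast fusion (774, in the gene CG32795 nested there), the afadin gene cno (608), the integrin gene mys (350) and the polarity gene crb (290). Both densities were below the 68.9 per Mb of all genes and near the 35.4 per Mb of genes without a promoter peak. A link to the promoter share was not tested. The median eligible sequence was 1500 bp in each list, against 670 bp over all genes.

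**Figure D4:**
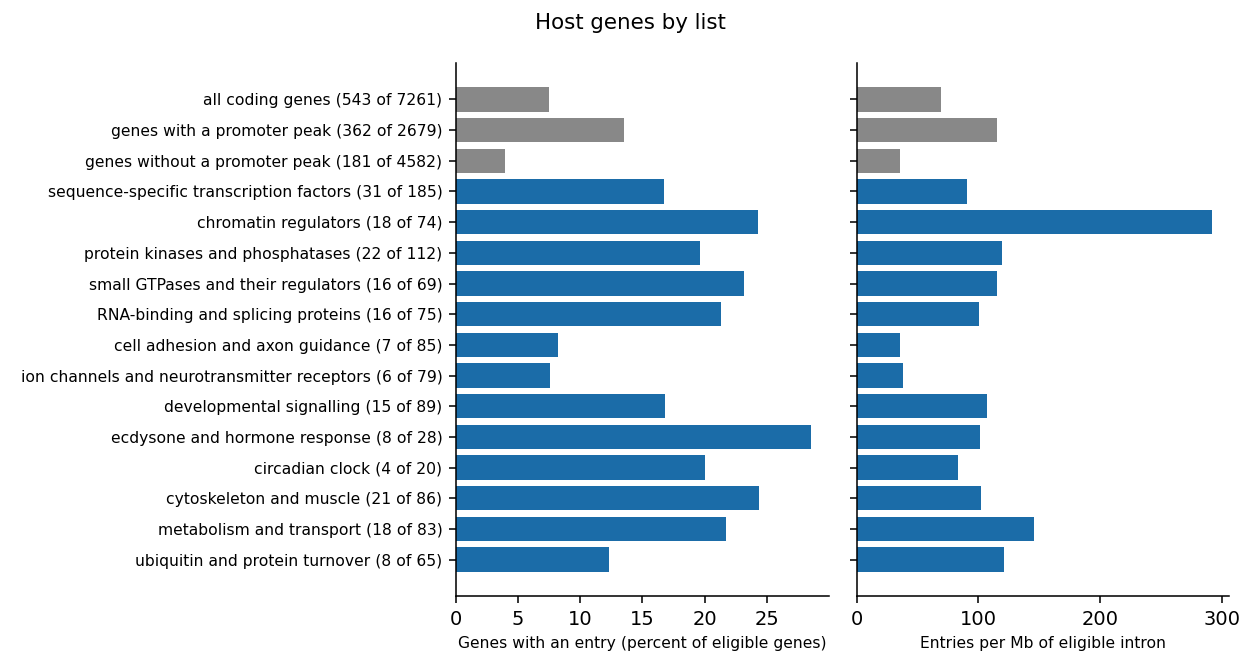
Bars show, for all coding genes, for genes with and without a promoter peak and for each list, the percentage of eligible genes that host an entry and the entries per Mb of eligible intron, with hosts and eligible genes in brackets. Chromatin regulators stand at 292 per Mb and adhesion genes at 35.5, with all coding genes at 68.9 per Mb.

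Base composition dropped sharply at the summits. The window of 50 bases to each side of the summit had a median of 34.7% G and C, against 42.1% in windows of the same length 350 bp to both sides and 38.6% in tiles of that length centred in eligible intron. In 513 of 704 entries (72.9%) the summit window was lower than its flanks, against 65.9% of promoter and 64.8% of distal intron entries. In the profile over bins of 21 bp the lowest value, 34.9%, stood at the summit itself. Some flanks reach into exons: 1170 of 1408 flank windows were wholly intron, and the 673 entries with such a flank had a median of 41.1% G and C there, with 460 summit windows (68.4%) below it.

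**Figure D5:**
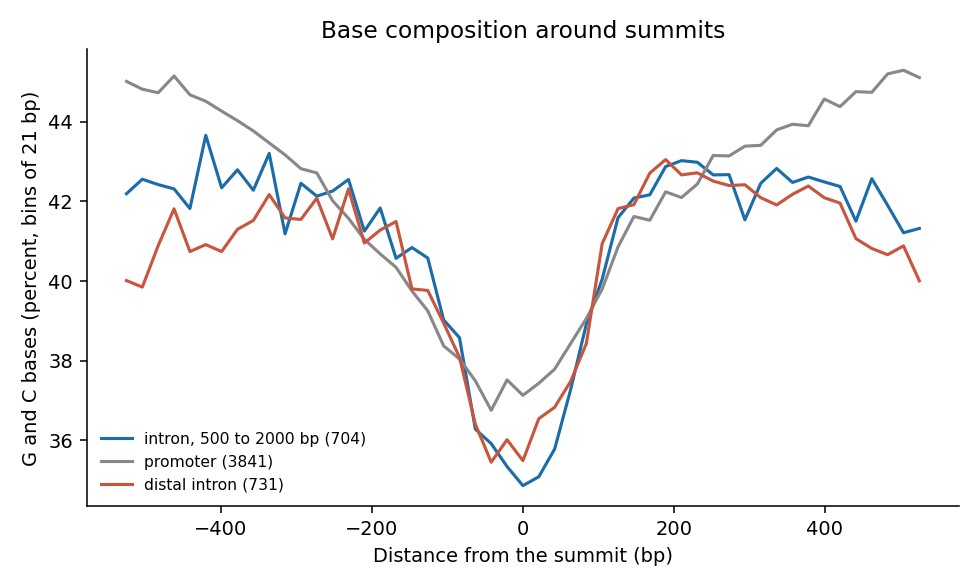
The mean percentage of G and C in bins of 21 bp is plotted against the distance from the summit in bp for the 704 intronic, 3841 promoter and 731 distal intron entries. The intronic profile falls to 34.9% at the summit.

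Motifs were counted on both strands in the same windows, with the A and T richness of the summits moving with each of them. TAATTA was in 67 of 704 windows (9.52%), against 6.25% of flanks, 8.24% of eligible tiles and 9.50% of promoter windows. TAACA was in 190 (27.0%), against 18.6%, 20.4% and 25.2%. The forkhead site TGTTTAC was in 41 (5.82%), against 3.13% of flanks, 2.67% of tiles and 3.85% of promoter windows. The run AAAAAAA was in 112 (15.9%), against 11.3% of flanks, 10.7% of tiles and 12.2% of promoter windows. Distal intron windows held TAATTA at 10.3%, TAACA at 23.4%, TGTTTAC at 4.79% and AAAAAAA at 16.1%, so TAATTA and AAAAAAA were no less frequent there. Flanks can reach into exons, but in the 1170 of 1408 flank windows that were wholly intron the shares of these 4 motifs were 6.75%, 19.8%, 2.99% and 11.8%. Each of the 4 was thus more frequent at the summits than in either kind of flank and in tiles, by least for TAATTA against tiles.

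The other motifs differed less from flanks, were lower at the summits or were rare. TATCGATA, the site of the promoter factor DREF, was in 2 windows (0.284%), against 3.49% of promoter windows. It was about as rare in distal intron windows (0.274%), flanks (0.142%) and tiles (0.207%). The GATA sites AGATAA and TGATAA were in 9.80% and 10.2% of windows and in 8.95% and 9.30% of flanks, but in 9.91% and 10.4% of the flanks that were wholly intron. ACANNTGT, a palindrome known from Iroquois-type proteins, was in 6.82% of windows, 5.82% of flanks (6.32% of those wholly intron) and 4.51% of tiles. TGACAG, a site of other TALE proteins, was lower at the summits, at 2.13%, than in flanks (3.27%) or tiles (3.75%). Motifs rich in repeats were more frequent in flanks than in tiles: GAGAGAG, the GAGA factor site, was in 2.70% of windows, 5.26% of flanks and 1.67% of tiles, and CACACACA was in 2.13%, 5.18% and 2.49%. CACGTG (0.710% of windows and 1.99% of flanks), TGACTCA (0.994% and 1.99%) and CAGGTAG (0.710% and 0.284%) were in at most 7 windows each.

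Among 6-letter words found in at least 20 windows, the 5 with the highest ratio to flanks were TGATCA (24 windows, 3.41% against 1.21%), AGTATA (48 windows, 6.82% against 2.56%), AGATCT (20 windows, 2.84% against 1.07%), TTTAAA (122 windows, 17.3% against 7.102%) and AATCTA (53 windows, 7.53% against 3.13%). Promoter windows held TTTAAA at a similar rate, 17.7%, but TGATCA at 1.25% and AGATCT at 1.22%. These words were picked by their own ratio, so the ratios are a description only.

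The distance limits cut through a continuous range. Just inside 500 bp were 3 summits at 501 bp, in the mitofusin gene Marf (signal 862), in Pcyt1, a phospholipid synthesis gene (219), and in rdx, an adaptor of a ubiquitin ligase (166). Just outside were intron summits in mam, a coactivator of Notch, at 500 bp (166) and in Mtp at 499 bp (339). Just inside 2000 bp were summits in mub at 1999 bp (173) and CG3764 at 1998 bp (303), and just outside those in blot at 2003 bp (195) and Ssdp at 2011 bp (286). Signals on the 2 sides of each limit overlapped.

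Few of the peaks were near the start of a non-coding gene. Of the 704, 18 (2.56%) had a TSS of a non-coding gene within 500 bp, 17 of them of a non-coding RNA and 1 of a transfer RNA. The strongest were in gce, 254 bp from asRNA:CR44429, in CG1943 (723), 344 bp from asRNA:CR45908, and in osp, 450 bp from lncRNA:CR43411. The median signal of the 18 was 231, against 262 for the rest. How much eligible intron lies this close to a non-coding start was not counted, so the share has no background.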

How the data were processed

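ChIP-seq of GFP-tagged CG11617 gave 1 group of 2 biological replicates. The authors deposited peak lists with a signal for each entry on dm6, per the notes deposited with them: a list for each replicate, a pooled list and an optimal set filtered on the irreproducible discovery rate (IDR), which compares peak ranks between replicates. The deposited lists for the replicates derive from an alignment and a control alignment. Which aligner and peak caller made them is not given in the sources used here. Signals are not scaled between lists, and depth is unknown.

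Summits were placed on 13945 protein-coding genes with 19253 TSS positions (Ensembl 115, BDGP 6.54). A promoter window is 500 bp to each side of a TSS. A replicate's signal at an entry is that of its highest overlapping entry, so overlapping entries can share one. Motifs were searched in windows of 50 bases to each side of the summit and in windows of that length centred 350 bp away on both sides. Only descriptions are given, since 1 group allows no test between samples. Of 1225 list symbols, 1141 matched the annotation. The lists were written by hand from symbols. Named are the 15 strongest regions, up to 4 hosts per list, hosts with 4 or more regions, entries at the distance limits, the 5 widest replicate ratios on each side and the 5 leading 6-mers; other named entries were chosen after their values were seen. Members, lists and motifs were chosen with earlier results of these data known. Alternatives changed the limits, annotation, windows, peak set, merging and replicates, and 8 were added after seeing the data. The scripts were tested on simulated data (Python 3.11.15, numpy 2.4.6, pandas 2.3.3, scipy 1.17.1, matplotlib 3.10.9). The dm3 lists were not used here.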

Additional observations from a re-analysis of the deposited data

How the results depend on the processing

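Of 67 values recomputed under alternative settings, 49 were counted as unchanged and 18 as moved. The bound was 1.5 times for the number of entries, the density and the SD of the replicate ratio, the 95% Wilson interval of the main value for shares, and the SD between the values of the 2 replicates taken alone for signal, distance and GC. With each replicate left out by taking the 5777 highest entries of the other, the median signal ran from 84.7 to 179, which is the scale of the other list, and the median distance from 1008 to 1021 bp. The number of entries was then 713 or 751 (548 with an upper limit of 1500 bp and 522 with a lower limit of 750 bp) and the share in first introns 83.8% or 85.4%. Merging overlapping entries, with each region placed by its strongest summit, left 596 and a median distance of 1037.5 bp. The 50% of entries with the highest signal, a set reduced by construction, gave 350 entries, a median signal of 403, a median distance of 975 bp, 64.9% downstream, 48.0% with a host promoter peak, 32.7% G and C, 33.8 entries per Mb and 10.2% of hosts with several regions. With TSSs of every biotype the nearest start was the host's for 85.9%, and with a lower limit of 750 bp 73.6% lay downstream. The share in a first intron was 59.8% when first in every transcript was required and 69.8% in the longest transcript. TAATTA was in 16.8% of windows with 100 bases to each side, which hold more letters, and a host promoter peak within 250 bp accompanied 57.0%. With the replicate entry of nearest summit, an alternative added after seeing the data, the SD of the log2 replicate ratio was 0.59 in place of 0.45. Intron order, host and class rest on 1 annotation release. Introns hold nested and alternative transcripts, so a summit can have several hosts, as 47 did. No paired analysis was possible because both replicates belong to 1 group.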
